A study of Mus musculus with 12 samples.

Results

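Fatty acid synthesis and the supply of its acetyl-CoA were followed through 10 genes in mouse small cell lung cancer cells whose Nfib level was lowered or raised. The genes are Acly, Acss1, Acss2, Me1, Acaca, Fasn, Scd1, Scd2, Elovl5 and Elovl6, taken by name from the 23226 features with a single gene name in the authors' deposited table. RNA was sequenced in 12 samples of 3 lines derived from Trp53-/-;Rb1-/- tumors, which grow as floating spheres. 16T cells with an shRNA against Nfib (sh2 in the titles) were set against 16T cells with a control shRNA (shLuc), and KP1 cells carried shRNAs of the same names. Both lines are labelled Nfib high. KP22 cells, labelled Nfib low, carried a vector with Nfib cDNA or an empty vector. Each of the 6 groups held 2 samples, and each line carried a single Nfib construct. No label says whether the duplicates were grown as separate cultures, so the spread behind the p-values here may be technical. It need not be the spread of a line's own duplicates, since the authors' fit may have pooled it over the lines.

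Fatty acids are built in the cytosol from acetyl-CoA. ATP-citrate lyase (Acly) releases acetyl-CoA from citrate exported by mitochondria, and the acetyl-CoA synthetases make it from acetate, Acss2 in the cytosol and nucleus and Acss1 in mitochondria. Acetyl-CoA carboxylase 1 (Acaca) makes malonyl-CoA in the committed step, and fatty acid synthase (Fasn) joins these units into palmitate with NADPH, part of which comes from cytosolic malic enzyme (Me1). Stearoyl-CoA desaturases (Scd1, Scd2) place a double bond in saturated chains, Elovl6 lengthens palmitate, and Elovl5 lengthens polyunsaturated chains. Sterol regulatory element binding proteins, encoded by Srebf1 and Srebf2, are the textbook activators of most of these genes. The Nfib product is itself a DNA-binding factor, a member of the nuclear factor I family.

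The table gave for each feature a mean normalized count over all libraries of the authors' fit and, for each comparison, a log2 fold change with its SE, which ± denotes below. It gave no value per sample, so the spread of a level, the number of samples showing a direction and the depth of each library are unknown here. The words rose and fell are kept for genes with an adjusted p below 0.05 in the authors' Wald test. Nfib set the direction of each comparison, since the headings do not state it, and so it is no separate check of the labels. Reads from the cDNA and from the cell's own Nfib transcript are not told apart. In the authors' deposited table it had a log2 fold change of -1.08 ± 0.035 with the shRNA in 16T, of -1.32 ± 0.035 with the shRNA in KP1 and of 1.80 ± 0.036 with the cDNA in KP22. All 10 neuroendocrine markers, Nfib among them, had means between 5290 and 45597 in the authors' deposited table. Of the 10, 4 rose and 4 fell in 16T, 5 rose and 5 fell in KP1, and 3 rose and 6 fell in KP22, where Chgb had -4.27 and Calca -1.71. Nfib counts among the falls in 16T and KP1 and the rises in KP22, which the reading of direction fixed. Over all adjusted genes, 45.3%, 37.2% and 38.4% were called in 16T, KP1 and KP22, shares that include features of low count. Adipocyte markers, from a tissue rich in these enzymes, summed to 2.1 over 5 genes, with Fabp4 at 0. Of 6 markers of alveolar type 2 cells, which make surfactant lipid, Abca3 had a mean of 5578 and 4 were under 10, with Sftpa1 and Lamp3 at 0. The sixth, Sftpc (mean 170.8), fell by 2.07 in 16T, and Abca3 fell in every comparison (by 0.21, 0.27 and 0.21 in 16T, KP1 and KP22), per the authors' deposited table. The 6 leukocyte and 5 airway markers summed to 173.9 and 228.5, and the 5 endothelial ones to 3051, of which Vwf made 2353. Kdr fell in every comparison (-1.48, -1.62 and -1.76), and Vwf rose in KP1 (1.34) and fell in KP22 (-0.75), per the authors' deposited table. Of 6 fibroblast markers, which summed to 2601, 3 rose in 16T, 1 fell in KP1 and 1 fell in KP22. The part of these cells in the results below was not tested. In bulk RNA, fewer cells of a type and less RNA per cell cannot be told apart.

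The 10 genes were read on RefSeq exon intervals of mm10. These span chr11:100476352-100528000 (Acly), chr11:84195438-84401651 (Acaca) and chr11:120805958-120824547 (Fasn), chr2:150618111-150659932 (Acss1) and chr2:155518043-155562743 (Acss2), chr9:86581363-86687277 (Me1) and chr9:77917365-77984519 (Elovl5), chr19:44394450-44407709 (Scd1) and chr19:44293676-44301444 (Scd2), and chr3:129532386-129638493 (Elovl6). Of the 10 genes, 9 were expressed well above the low end of the table. Per kilobase of exon interval, Scd2 stood highest, with a mean normalized count of 6508 per kb, above 97.2% of the genes with a mean above 0. Acly followed with 3871 per kb and Fasn with 3341 per kb. Elovl5 had 1405 per kb, Acaca 932, Acss2 824, Elovl6 608, Me1 552 and Scd1 351. The first step from citrate, the synthase and the Scd2 desaturase were therefore the most abundant transcripts of the route. Acss1 had a mean of 0.464 normalized counts and 0.143 per kb, and the authors gave it no adjusted p. Whether neighbours in this order differ beyond their spread, or whether the order holds in each line, cannot be said without values per sample. Acss2, with 824 counts per kb, is the acetyl-CoA synthetase read in all that follows. The levels of Scd1, Scd2 and Scd3 rest on similar sequences: over their coding regions Scd1 and Scd2 are 90.4% identical, with a longest shared run of 147 bases in the GENCODE annotation. Reads in such runs could have been split between them, and how the authors treated these reads is not given in the sources used here.

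**Figure D1:**
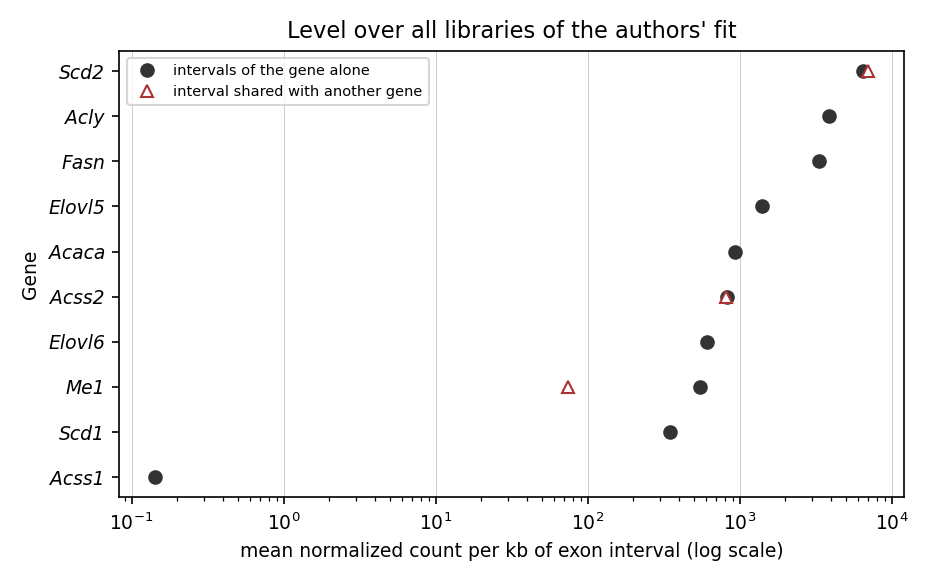
Mean normalized count per kilobase (horizontal axis, log scale) of the 10 genes over all libraries of the authors' fit, from intervals of the gene alone (circles) or shared with another gene (triangles). Scd2 has 6508 per kb and Acss1 0.143 per kb, and no spread over samples can be drawn.

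Promoter sequence is shown for 3 genes on which the results turn: Acss2, which had the largest change, Me1, which rose in all 3 comparisons, and Fasn, which fell in 16T. The 250 bases before the RefSeq start (GRCm38.p6) are given 5′ to 3′ on the gene's strand, with capitals for matches on either strand to the E-box CACGTG, to the CCAAT box, to the GC box GGGCGG or to TTGGC, the core of nuclear factor I sites. They lie at chr2:155517793-155518042 (plus strand, Acss2), chr9:86695915-86696164 (minus strand, Me1) and chr11:120824548-120824797 (minus strand, Fasn).
Acss2: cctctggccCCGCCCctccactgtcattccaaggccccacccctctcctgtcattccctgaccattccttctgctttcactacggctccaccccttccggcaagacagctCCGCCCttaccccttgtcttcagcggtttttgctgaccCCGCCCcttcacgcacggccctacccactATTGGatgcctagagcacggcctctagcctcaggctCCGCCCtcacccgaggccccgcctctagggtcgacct
Me1: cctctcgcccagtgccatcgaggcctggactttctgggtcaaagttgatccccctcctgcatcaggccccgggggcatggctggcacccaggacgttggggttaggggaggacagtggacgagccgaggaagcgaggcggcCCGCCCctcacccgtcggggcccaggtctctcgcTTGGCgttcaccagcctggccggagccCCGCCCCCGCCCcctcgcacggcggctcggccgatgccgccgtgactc
Fasn: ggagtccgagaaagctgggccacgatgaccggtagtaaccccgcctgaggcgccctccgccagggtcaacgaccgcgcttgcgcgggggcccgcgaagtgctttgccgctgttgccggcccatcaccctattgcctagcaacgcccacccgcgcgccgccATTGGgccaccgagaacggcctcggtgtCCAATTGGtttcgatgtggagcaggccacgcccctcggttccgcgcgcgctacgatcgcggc
The Fasn stretch holds CCAAT 3 times, with 2 of the matches overlapping, and no GGGCGG. The Acss2 stretch holds GGGCGG 4 times and CCAAT once. The Me1 stretch holds GGGCGG 3 times and TTGGC once.

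RefSeq promoters whose start lay within 500 bases of the annotated gene start were at hand for 7 of the 10 genes, all except Acaca, Scd1 and Scd2. CCAAT was found in 3 of the 7 (Fasn, Elovl5 and Acss2), against 33.8% of 32807 promoters, and GGGCGG in 4 of the 7 (Acly, Acss1, Acss2 and Me1), against 32.7%. TTGGC, which can overlap CCAAT on the other strand, was in 4 of the 7 (Acly, Elovl5, Elovl6 and Me1), against 41.5%. The E-box CACGTG was in Elovl5 alone of these 7, against 6.02% of all promoters, and ACGTG, which it contains, was in Acly and Elovl5, against 16.6%. TCACNCCAC, a sterol regulatory element core, was in 0 of the 7, against 1.05% of all promoters. The longer sterol regulatory element of the LDL receptor gene and the full nuclear factor I palindrome were also in 0 of the 7, against 0.0732% and 0.0366%. Each match is a match of letters only, and a window without one says nothing of the factor.

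Lowering Nfib in 16T moved most of the route, in both directions. In the authors' deposited table, 5 of the 9 adjusted genes rose (Scd1, Scd2, Me1, Acss2 and Elovl5), 3 fell (Fasn, Acaca and Elovl6), and Acly had 0.01 ± 0.038. The median of the 9 log2 fold changes was 0.16. Of all 14504 genes adjusted in 16T, 45.3% were called, with a median of -0.05. The chain-building enzymes Acaca and Fasn thus fell in the comparison in which both desaturases and Acss2 rose.

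Lowering Nfib in KP1 gave another pattern. In the authors' deposited table, Me1 rose, Scd1, Scd2, Acss2 and Acaca fell, and Fasn, Acly, Elovl5 and Elovl6 did not pass the threshold. The median of the 9 log2 fold changes was -0.06, and 37.2% of all 14504 adjusted genes were called, with a median of -0.02. None of the 9 passed the authors' test against a change of 0.5 in KP1, which 4.58% of all genes passed. Raising Nfib in KP22 gave 3 rises (Me1, Acaca and Elovl5) and 2 falls (Acss2 and Acly) in the authors' deposited table, with a median of 0.08. There, 38.4% of 17544 adjusted genes were called, with a median of 0.04. The share of the 9 genes called was 55.6% in KP1 and in KP22. The 9 genes had means of 1696 or more, whereas the shares over all adjusted genes include features of low count. With adjustment over the 12287 genes with a mean of at least 100, 6420 were called in 16T, 5237 in KP1 and 6434 in KP22. The calls of the 9 genes stayed the same.

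**Figure D2:**
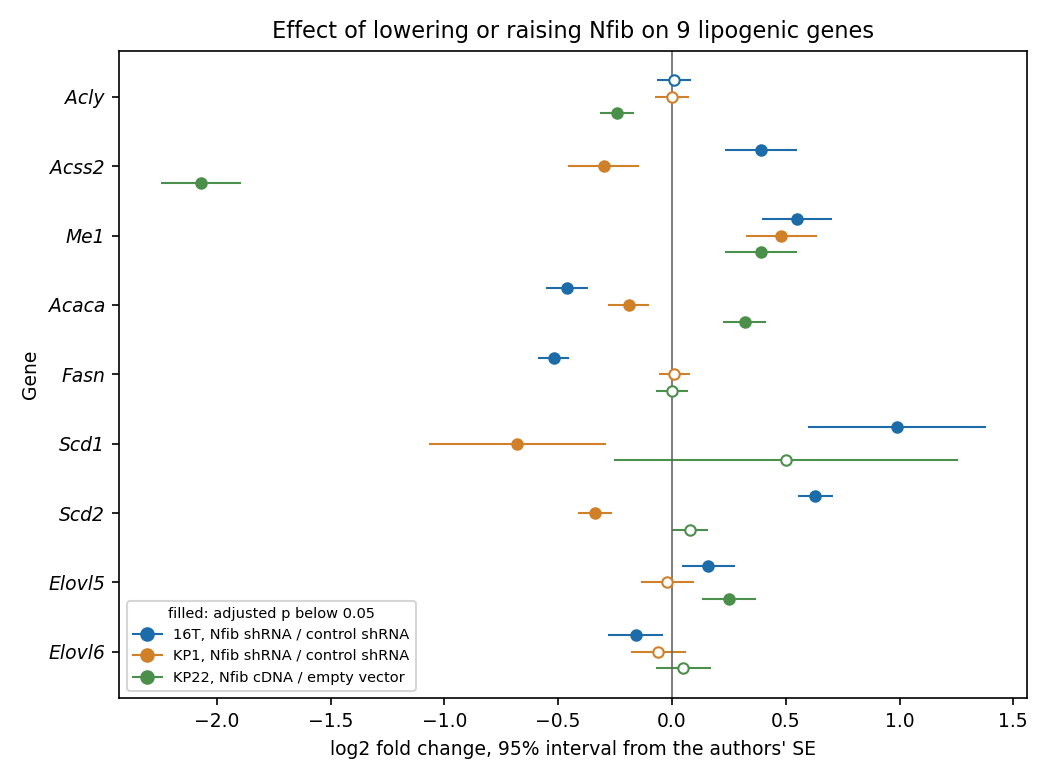
Log2 fold change (horizontal axis) of the 9 adjusted genes in 16T and KP1 with Nfib shRNA over control shRNA and in KP22 with Nfib cDNA over empty vector, with 95% intervals from the authors' SEs. Filled points passed an adjusted p of 0.05. Acss2 in KP22 (-2.07) lies apart from all other points, and Me1 lies to the right of 0 in all 3 comparisons.

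Acss2, which turns acetate into acetyl-CoA, showed the largest change of the 10 genes. With Nfib cDNA in KP22 its level was 23.8% of that with empty vector, which the authors' deposited table gives as a log2 fold change of -2.07 ± 0.090 (adjusted p = 5.7e-115). It was the only one of the 9 genes past the authors' test against a change of 0.5 in KP22, which 7.66% of all genes passed. With the Nfib shRNA, the authors' deposited table had a rise of 0.39 ± 0.081 for Acss2 in 16T (adjusted p = 1.03e-05) and a value of -0.30 ± 0.080 in KP1 (0.000822), a fall. The mean of the knockdown effects lay 2.11 (95% interval 1.90 to 2.32) above the KP22 effect, with a Benjamini-Hochberg adjusted p of 5.98e-86 over 15008 genes. The exon interval that Acss2 shares with its antisense gene Acss2os had a mean of 125, and the authors' deposited table gives it -1.41 ± 0.285 in KP22. Acss2os on its own intervals had -0.85 ± 0.289 there (adjusted p = 0.0119), per the authors' deposited table. Whether counting used strand is not given in the sources used here, and without strand the reads of the pair cannot be told apart.

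The genes around Acss2 on chromosome 2 also fell in KP22. Among 37 genes within 1 Mb and with a mean of at least 100, a set looked at after the values were known, 28 fell, 1 rose and the median log2 fold change in the authors' deposited table was -0.43. Against this, 18.8% of all adjusted genes fell in KP22, a share that includes genes with a mean under 100. With adjustment over the 12287 genes with a mean of at least 100, 6434 were called in KP22 in either direction. None of the 37 lay below Acss2. Ggt7, a gamma-glutamyltransferase family gene just before Acss2, had -1.31 ± 0.066 in the authors' deposited table. Gss, which encodes glutathione synthetase and lies just after Acss2, had -0.68 ± 0.077, and Myh7b, a myosin heavy chain gene, had -1.04 ± 0.107, per the authors' deposited table. In 16T and KP1 the median of the same neighbours was -0.04 and -0.14, with 10 and 15 genes lower and 6 and 4 higher. The part of the region in the Acss2 value was not tested.

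**Figure D3:**
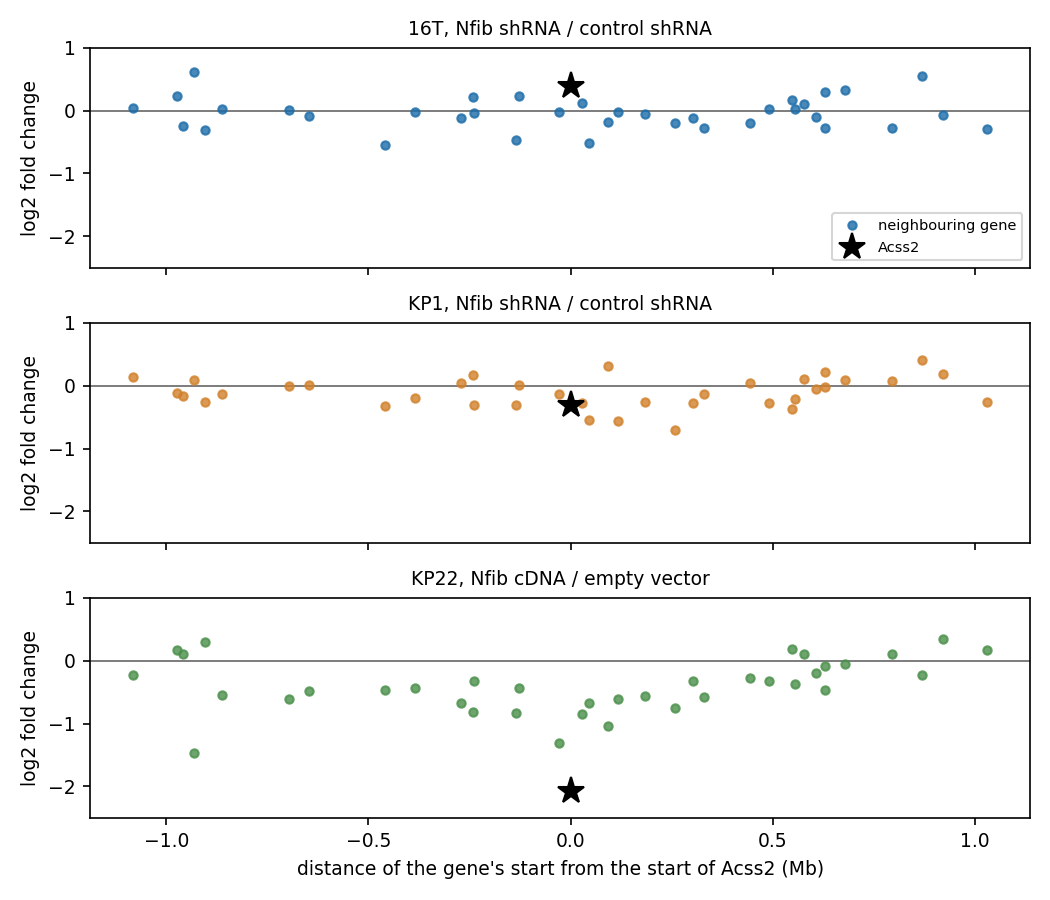
Log2 fold change (vertical axis) of Acss2 (star) and its 37 neighbours (points) by distance from the start of Acss2 in Mb (horizontal axis), in the 3 comparisons. In KP22 28 neighbours fell and Acss2 is the lowest, whereas in 16T and KP1 the neighbours lie around medians of -0.04 and -0.14.

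Genes whose 3 effects were nearest to those of Acss2 were sought among 12286 other genes with a mean of at least 100, by the Euclidean distance over the 3 comparisons. Tdrp (distance 0.15), Grb14 (0.21), Fkbp14 (0.26), Opn3 (0.31) and Fst (0.35) came closest. Grb14 encodes a receptor-binding adaptor protein, and the authors' deposited table gives it 0.30 ± 0.119 in 16T, -0.37 ± 0.111 in KP1 and -1.89 ± 0.112 in KP22. That these genes lie near Acss2 follows from how they were chosen. Tdrp had a mean of only 111.9, with SEs of 0.335, 0.326 and 0.320 in 16T, KP1 and KP22.

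Acly, which draws acetyl-CoA from citrate, passed in neither knockdown. Its log2 fold change in the authors' deposited table was 0.01 (95% interval -0.07 to 0.08) in 16T and 0.00 (-0.07 to 0.08) in KP1. In KP22 with Nfib cDNA it fell by 0.24 (SE 0.038), to 84.5% of the empty vector level, per the authors' deposited table (adjusted p = 1.99e-09). It sits on chromosome 11 among 48 genes within 1 Mb whose median log2 fold change in KP22 was -0.21, with 27 lower and 4 higher. The knockdown mean lay 0.25 (0.16 to 0.34) above the KP22 effect for Acly (Benjamini-Hochberg adjusted p = 4.92e-07).

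Me1, the cytosolic malic enzyme, was the single member that rose in all 3 comparisons. Its level was 147% of control in 16T, 140% in KP1 and 131% in KP22, with log2 fold changes of 0.55 ± 0.078, 0.48 ± 0.080 and 0.39 ± 0.081 in the authors' deposited table. It therefore rose both where Nfib was lowered and where it was raised. Of all 14504 genes adjusted in every comparison, 1.25% were called higher in all 3 and 15.1% were called in all 3 in any direction. The effect in 16T minus that in KP1 was 0.07 (95% interval -0.15 to 0.29), and the knockdown mean minus KP22 was 0.13 (-0.07 to 0.32), so neither difference passed. The 9 neighbours of Me1 on chromosome 9 had medians of -0.13, -0.02 and 0.06 in 16T, KP1 and KP22. An interval of 473 bp at the start of Me1 is shared with A330041J22Rik, with a mean of 35.3. In the authors' deposited table it had -0.50 ± 0.460, 0.39 ± 0.468 and 0.82 ± 0.463 in 16T, KP1 and KP22 and passed in none, and its sign in 16T is opposite to that of Me1.

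Acaca, the committed enzyme, fell in both knockdown lines and rose where Nfib was raised. It fell in 16T by 0.46 (SE 0.047), to 72.5% of control, and in KP1 by 0.19 (SE 0.046), to 87.5%, in the authors' deposited table. It rose in KP22 by 0.32 ± 0.048, to 125% of the empty vector level, per the authors' deposited table (adjusted p = 1.84e-10). Averaged over the 3 lines and turned towards higher Nfib, its effect was 0.33 (95% interval 0.27 to 0.38, Benjamini-Hochberg adjusted p = 5.74e-32). Acaca was the only one of the 9 genes that was called with 1 sign in both knockdowns and the other in KP22, as were 10.1% of all 14504 genes, and 5.33% were lower in both and higher in KP22 as Acaca was. Its 24 neighbours within 1 Mb had a median of -0.24 in 16T (11 lower, 3 higher), 0.02 in KP1 (6 lower, 5 higher) and 0.15 in KP22 (7 higher, 3 lower), and their part in its values was not tested. Its fall was larger in 16T than in KP1, by -0.27 (-0.40 to -0.14, adjusted p = 0.000313), a difference that missed narrowly with a t reference of 6 degrees of freedom (0.0501). Its coding sequence is 71.1% identical to that of Acacb, with a longest shared run of 29 bases.

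Fasn, the synthase itself and the member with the highest mean normalized count (33202), changed in 16T only among the calls. It fell there to 69.9% of control, which the authors' deposited table gives as a log2 fold change of -0.52 ± 0.035 (adjusted p = 1.14e-47). Per the authors' deposited table, Fasn had 0.01 (95% interval -0.06 to 0.08) in KP1 and 0.00 (-0.07 to 0.07) in KP22. The difference between the 16T and KP1 effects was -0.53 (-0.62 to -0.43, Benjamini-Hochberg adjusted p = 1.36e-24). Among its 53 neighbours within 1 Mb on chromosome 11, the median in 16T was -0.05 and 2 genes lay below Fasn.

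The desaturases rose in 16T and fell in KP1. Scd2, on chromosome 19, rose to 154% of control in 16T (0.63 ± 0.039) and fell to 78.8% in KP1 (-0.34 ± 0.038) in the authors' deposited table. In KP22 it had 0.08 ± 0.040 in the authors' deposited table, which did not pass (adjusted p = 0.107). The last Scd2 interval, of 3862 bp and shared with the microRNA gene Mir5114, had a mean of 27049 and gave 0.63, -0.21 and 0.05 in the authors' deposited table. Scd2 was the only one of the 9 past the authors' test against 0.5 in 16T (adjusted p = 0.025), which 5.25% of all genes passed. Scd1, which lies close to Scd2, rose to 199% of control in 16T (0.99 ± 0.199) and fell to 62.6% in KP1 (-0.68 ± 0.198) in the authors' deposited table. In KP22 the authors' deposited table gave it 0.50 ± 0.386 (adjusted p = 0.351).

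The Scd1 values were less precise than those of genes with a like mean over all libraries. The level of Scd1 in each line is unknown. Its fall in KP1 did not pass with a t reference (adjusted p = 0.0665). Its SEs were 2.29, 2.29 and 4.41 times the median SE of 1589 genes of similar mean (a ratio of at least 0.8 either way), in 16T, KP1 and KP22. For the other 8 adjusted genes this ratio lay between 0.840 (Scd2 in KP1) and 1.15 (Acss2 in KP22). Which libraries set the wide Scd1 error cannot be seen from a table without values per sample. The smaller relatives were scarce: Scd3 had a mean of 62.15 and passed in no comparison, and Scd4, with a mean of 67.61, rose in KP1 (1.52 ± 0.509) in the authors' deposited table. The polyunsaturated-chain desaturase Fads1 (mean 14696) rose in 16T (0.25 ± 0.037) and fell in KP1 (-0.21 ± 0.036) and KP22 (-0.13 ± 0.038), per the authors' deposited table. Its relative Fads2 had 0.04 ± 0.049, -0.30 ± 0.049 and 0.41 ± 0.051 and passed in KP1 and KP22, per the authors' deposited table.

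The elongases Elovl5 and Elovl6 had log2 fold changes of at most 0.25 in size. Elovl5 rose in 16T (0.16 ± 0.060, adjusted p = 0.0196) and in KP22 (0.25 ± 0.061, adjusted p = 0.000178) and had -0.02 ± 0.059 in KP1 in the authors' deposited table. Elovl6 fell to 89.4% of control in 16T (-0.16 ± 0.062, adjusted p = 0.0238) and passed neither in KP1, with -0.06 (95% interval -0.18 to 0.06), nor in KP22, with 0.05 (-0.08 to 0.17), in the authors' deposited table. Elovl7, which lengthens saturated and other long chains and is not one of the 10 genes, had far larger effects in the authors' deposited table: -1.20 ± 0.091 in 16T, -1.88 ± 0.089 in KP1 and 1.65 ± 0.094 in KP22. Neither the Elovl5 nor the Elovl6 call in 16T held when the normal reference was replaced by a t distribution with 6 degrees of freedom (adjusted p of 0.100 and 0.107), and Elovl6 also missed after recentring on the median gene (0.126).

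The shRNA effect differed between the knockdown lines for 5 of the 9 genes, with 3 effects above and 2 below in 16T. Over all 15008 genes, 29.4% differed. Scd1 (1.67, 95% interval 1.12 to 2.22), Scd2 (0.97, 0.86 to 1.08) and Acss2 (0.69, 0.47 to 0.91) were above. These 3 were called in opposite directions in the knockdown lines, as were 4.54% of all genes, and all 3 were higher in 16T and lower in KP1, as were 2.41%. Fasn and Acaca were below. The differences of Acly (0.01, -0.10 to 0.11), Elovl6 (-0.10, -0.27 to 0.07), Me1 and Elovl5 (0.18, 0.02 to 0.35, adjusted p = 0.0874) did not pass, and their intervals bound what these data allow.

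**Figure D4:**
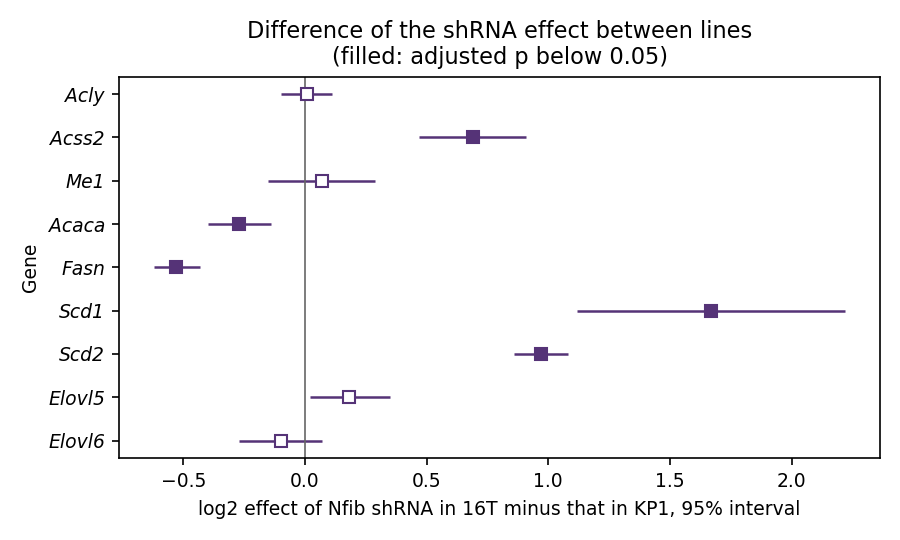
Log2 effect of the Nfib shRNA in 16T minus that in KP1 (horizontal axis) for the 9 adjusted genes, with 95% intervals. Filled squares passed a Benjamini-Hochberg adjusted p of 0.05. Scd1 (1.67), Scd2 (0.97) and Acss2 (0.69) lie above 0, and Fasn (-0.53) and Acaca (-0.27) below.

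Against KP22, the knockdown mean differed for 5 of the 9 genes, as it did for 52.2% of all genes. Acss2 and Acly were above, and Acaca (-0.65, 95% interval -0.76 to -0.54), Fasn (-0.26, -0.34 to -0.17) and Elovl5 (-0.18, -0.33 to -0.04) below, the last without a call under a t reference (adjusted p = 0.0982) or after recentring (0.189). Turned towards higher Nfib and averaged over the 3 lines, 3 genes were above 0 (Acaca, Fasn with 0.17 and Elovl6 with 0.09) and 4 below (Acss2 with -0.72, Me1 with -0.22, Acly with -0.08 and Scd2 with -0.07). Of all genes, 52.9% were called on that average, and the small values of Scd2 and Elovl6 missed under a t reference (adjusted p of 0.057 and 0.0944). The Fasn value on it comes from its fall in 16T, and the Acss2 value from its fall in KP22.

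Related genes were counted by list, to be read against all adjusted genes: 25.3% of these fell in 16T (of 45.3% called), 19.6% fell and 17.6% rose in KP1, and KP22 had 19.5% higher and 18.8% lower. The regulators of the route were mixed. Of the 25 regulators, the authors' deposited table called 6 higher and 5 lower in 16T (median log2 fold change 0.01), 3 higher and 10 lower in KP1 (-0.10), and 10 higher and 5 lower in KP22 (0.17). Srebf1 rose in 16T (0.39 ± 0.048), had -0.06 ± 0.047 in KP1 and fell in KP22 (-0.38 ± 0.048) in the authors' deposited table. Srebf2 had 0.09 ± 0.041, -0.29 ± 0.040 and 0.24 ± 0.041 and passed in KP1 and KP22, and Insig1, which retains the Srebf products in the endoplasmic reticulum, had 0.49 ± 0.052, -0.04 ± 0.049 and 0.55 ± 0.051 and passed in 16T and KP22, per the authors' deposited table. Thrsp, a lipogenic protein of liver and fat, fell in 16T (-0.67 ± 0.092) and KP1 (-0.64 ± 0.092) and rose in KP22 (0.96 ± 0.097) in the authors' deposited table. Trib3, a stress-induced pseudokinase that in mouse fat promotes degradation of acetyl-CoA carboxylase, rose in 16T (1.64 ± 0.090) and KP1 (0.34 ± 0.087) and fell in KP22 (-0.53 ± 0.114), per the authors' deposited table. After recentring on the median gene, 9 in place of 5 regulators fell in KP22.

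Upstream of Acly, 8 of 20 genes for citrate and pyruvate handling fell and 2 rose in 16T, 7 fell and 3 rose in KP1, and 7 of 21 rose and 5 fell in KP22. Slc25a1, the mitochondrial citrate exporter, fell in 16T (-0.28 ± 0.069) and KP1 (-0.42 ± 0.068) and rose in KP22 (0.76 ± 0.068) in the authors' deposited table. Pdk1, a kinase that switches off pyruvate dehydrogenase, rose in 16T (2.15 ± 0.067) and fell in KP1 (-0.29 ± 0.065) and KP22 (-0.29 ± 0.066), per the authors' deposited table. A list of genes around NADPH, the reductant that Fasn uses, held its sources. It also held NAD-linked enzymes such as Idh3a and Mdh2 and users of NADPH such as Txnrd1 and Hmox1. Of its 20 tested genes, 14 fell in 16T, Idh3a, Mdh2 and Txnrd1 among them, and 3 rose. In KP1, 9 fell and 4 rose. In KP22 8 of 21 rose and 5 fell, or 8 and 8 after recentring. G6pdx, which opens the pentose phosphate route, had -0.44 ± 0.073, -0.48 ± 0.073 and 0.70 ± 0.072, and Idh1, cytosolic isocitrate dehydrogenase, -0.52 ± 0.093, -0.61 ± 0.090 and 0.50 ± 0.093 in the authors' deposited table. All 6 of these values passed, with signs opposite to those of Me1 in the knockdowns. Other called genes of this list had other patterns. Hmox1, heme oxygenase, had 0.21 ± 0.168 in 16T, rose in KP1 (1.45 ± 0.164) and fell in KP22 (adjusted p = 1.23e-08), per the authors' deposited table. Taldo1, transaldolase, had -1.03 ± 0.050, -0.45 ± 0.049 and -0.10 ± 0.048 and passed in the knockdowns, per the authors' deposited table. Nadk2, the mitochondrial NAD kinase, had 0.32 ± 0.099, -0.13 ± 0.096 and -0.98 ± 0.095 and passed in 16T and KP22, per the authors' deposited table. Me3, the mitochondrial relative of Me1, rose in 16T (0.75 ± 0.175) and KP1 (1.26 ± 0.191) and had -0.16 ± 0.167 in KP22, per the authors' deposited table.

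Beside the elongases and desaturases above, the list of their relatives gave 2 rises and 4 falls among 17 in 16T, 3 and 4 in KP1, and 3 and 7 among 18 in KP22. Fads3, a desaturase family gene, rose in 16T (1.39 ± 0.200) and KP1 (1.28 ± 0.205) and fell in KP22 (-0.67 ± 0.264) in the authors' deposited table. A list of other genes around the start of acyl chains also held Mlycd, which breaks down malonyl-CoA, thioesterases such as Acot7, and the biotin ligase Hlcs. Of its 17 tested genes, none rose in 16T and 7 fell, Hlcs among them. KP1 and KP22 each had 1 rise and 3 falls. After recentring, 3 in place of 7 fell in 16T. Acacb, the mitochondrial-surface carboxylase, had -0.45 ± 0.136, -0.25 ± 0.136 and 0.37 ± 0.133 and passed in 16T and KP22, the signs of Acaca, per the authors' deposited table. Acss3, the third acyl-CoA synthetase of short chains, fell in 16T (-1.19 ± 0.135) and KP1 (-0.63 ± 0.136) in the authors' deposited table.

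Genes that use or release fatty acids were also mixed. The list of glycerolipid synthesis also held storage genes and the lipases Pnpla2, Lipe and Mgll. Of its 22 tested genes, 2 rose and 3 fell in 16T and 1 and 7 in KP1. Of 24 in KP22, 3 rose and 6 fell. Pnpla2 was among the falls in both knockdowns and the rises in KP22. After recentring, 3 rose and 1 fell in 16T. Agpat2, an acyltransferase of phosphatidic acid synthesis with a low mean of 36.83, rose in 16T (1.72 ± 0.435) and fell in KP22 (-2.69 ± 0.482) in the authors' deposited table. Fatty acid oxidation, the reverse route, had 3 rises and 6 falls of 25 in 16T, 5 and 5 in KP1, and 4 and 11 of 26 in KP22. After recentring, 6 rose and 6 fell in 16T. Cholesterol synthesis shares acetyl-CoA and the Srebf factors: its 23 genes had 9 rises and 5 falls in 16T (median 0.06), 0 rises and 16 falls in KP1 (-0.27), and 16 rises and 3 falls in KP22 (0.33). Hmgcs1, its cytosolic synthase step, had 0.24 ± 0.046, -0.47 ± 0.045 and 0.82 ± 0.046 in the authors' deposited table. Of 14 markers of fat, liver and mammary gland, 2, 2 and 6 had an adjusted p in 16T, KP1 and KP22, and Ttr rose in 16T (0.95 ± 0.175) and fell in KP1 (-0.91 ± 0.188), per the authors' deposited table.

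**Figure D5:**
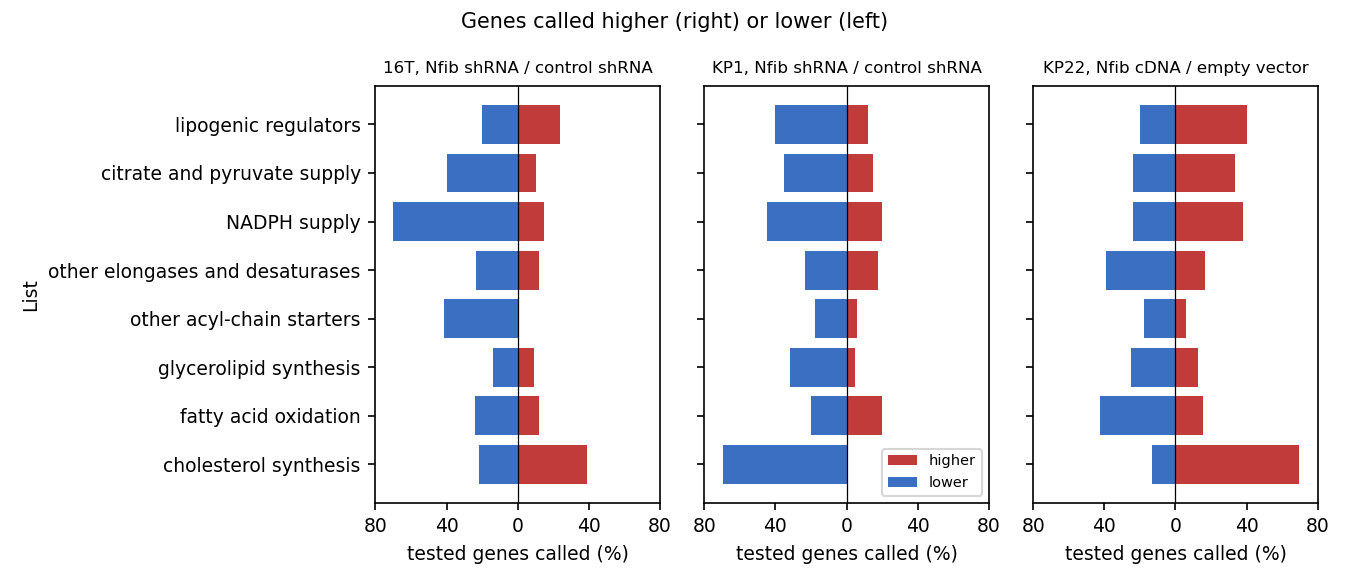
Share of the tested genes of 8 related lists that were called higher (bars to the right, red) or lower (bars to the left, blue) in each comparison, in percent of genes tested. In KP1 0 of 23 cholesterol synthesis genes were higher and 16 lower, and in KP22 16 were higher and 3 lower. In 16T 14 of 20 genes of the NADPH list were lower. The NADPH, acyl-chain starter and glycerolipid lists also hold genes of other roles.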

How the data were processed

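RNA was sequenced in 12 samples (Qiagen RNeasy extraction and Illumina TruSeq v2 libraries, per the labels' protocols). The submitters' processing notes name DESeq2, DESeq, TopHat, bedtools and the build mm10, without roles or versions. Settings and strandedness are not stated there. The name of the deposited file mentions cqn normalization and deseq. Per the file headers, the authors gave 1 mean normalized count per feature (a signal level for the whole fit). For each comparison they gave a log2 fold change with its SE, the Wald score, and p-values before and after adjustment, with the same for a test against a change of 0.5. Depth per library is unknown, so precision is that of the deposited SEs. The largest SE was 0.521 in each comparison, and Acss1, with a mean of 0.464, had SEs of only 0.195, 0.201 and 0.168. Whether the fit drew log2 fold changes towards 0 is not stated. If it did, the percents of control and the intervals share this, most where SEs are wide.

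From these values, features with 1 gene name (23226 of 28112) were read as deposited, and lengths came from the deposited RefSeq exon intervals. Low features have no adjusted value (in 16T and KP1 the lowest mean with one is 15.7). The 3 contrasts between comparisons, which share no samples, took the SEs as independent and a normal reference. A fit over all lines would share its estimate of spread between these SEs. Benjamini-Hochberg adjustment was over 15008 genes with a mean of at least 10. Simulated data for these contrasts were drawn with the same SEs, independence and normal distribution, so they could check the calculation and not these assumptions. The 10 genes and the related lists were chosen with earlier results of these data known. From each list the text names up to 4 called genes a comparison by size of change, plus Srebf1, Srebf2, Insig1, Slc25a1, Acacb, Fads1 and Fads2. Scd3, Scd4 and the neighbours of Acss2 were named after their values were seen. Some further genes are named only to show what a list holds. Lists were counted without a test. A gene the naming rule covers is not reported here. Alternatives were other thresholds, filters, centring, a t reference and joined features. Python 3.11.15, pandas 2.3.3, scipy 1.17.1 and biopython 1.88 were used.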

Additional observations from a re-analysis of the deposited data

Results flagged for a closer look

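The effect of the Nfib shRNA differed between 16T and KP1 for 5 genes of fatty acid synthesis and acetyl-CoA supply, by a test of the difference itself with Benjamini-Hochberg adjustment over 15008 genes. The log2 effect in 16T minus that in KP1 was 1.67 for Scd1 (adjusted p = 5.02e-08), 0.97 for Scd2 (2.19e-69), 0.69 for Acss2 (2.58e-08), -0.53 for Fasn (1.36e-24) and -0.27 for Acaca (0.000313). Scd1, Scd2 and Acss2 had opposite signs in the 2 lines, Acaca fell in both, and Fasn passed in 16T and not in KP1. A difference at this threshold was found for 29.4% of all genes.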

How the results depend on the processing

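No paired analysis was possible because the deposited table holds results of comparisons and no values per sample; for the same reason leaving out a replicate and other normalizations were not run. Of the values of single genes under the alternatives, 328 kept their direction and stayed either called or uncalled, 47 lost the call and 2 gained it. Values uncalled as reported are among the 328, and stricter thresholds could take no call from them. Only 1 changed sign: Fasn in KP22, not called, had -0.04 after recentring (adjusted p = 0.494). With a log2 fold change of at least 1 required, the counts of members called were 0 in 16T, 0 in KP1 and 1 in KP22, and under the authors' test against 0.5 they were 1, 0 and 1. Over all genes these gave 923, 864 and 1416, and 813, 709 and 1264, against 6574, 5402 and 6730 as reported. With a t reference of 6 degrees of freedom the counts over all genes were 4426, 3091 and 4325, and 1870 against 4417 for the difference between 16T and KP1. That reference also lost the calls of Scd1 in KP1 (adjusted p = 0.0665), Acaca in 16T minus KP1 (0.0501), Elovl5 in the knockdown mean minus KP22 (0.0982), and Scd2 and Elovl6 on the average towards higher Nfib (0.057 and 0.0944). Recentring moved the effects of single comparisons by at most 0.046, and contrasts between them by more (the knockdown mean minus KP22 of Acss2 was 2.18 in place of 2.11). It gained Elovl5 in 16T minus KP1 (0.22, adjusted p = 0.0383) and Scd2 in the knockdown mean minus KP22 (0.13, 0.0168), and lost Elovl5 there (-0.12, 0.189) and Elovl6 on the average (0.06, 0.182). With the shared intervals included, the level per kb was 6859 for Scd2, 493 for Me1 and 0.117 for Acss1. The unknown depth limits what can be said of Acss1.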
